A study of Mus musculus with 12 samples.

Results

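The genes of MHC class I antigen presentation were followed across hippocampal mRNA libraries of 2 inbred mouse strains after knockdown of Hp1bp3, a chromatin protein related to linker histones. The 10 genes were B2m, H2-K1, H2-D1, Tap1, Tap2, Tapbp, Psmb8, Psmb9, Psmb10 and Nlrc5. They were taken by symbol from a table of 22236 genes. All 10 passed the low-count filter, which left 15853 genes for testing.

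C57BL/6J (B6) and DBA/2J (D2) males of 3 to 5 months received AAV9 (an adeno-associated virus) in both hippocampi. In KD mice the virus carried a short hairpin RNA against Hp1bp3, and in Ctrl mice a scrambled hairpin. There were 3 mice in each of the 4 groups, B6 Ctrl, B6 KD, D2 Ctrl and D2 KD, and all 12 carried virus and were taken at least 6 weeks later. RNA came from homogenates of the whole hippocampus, including cells that the virus did not reach, and no mouse without virus is among the samples. Fewer cells of a type and less RNA per cell cannot be told apart in such bulk RNA.

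Class I molecules display peptides from inside the cell to CD8 T cells. Proteasomes cut proteins into peptides, the Tap1-Tap2 pump carries the peptides into the endoplasmic reticulum, and Tapbp (tapasin) holds the pump next to an empty heavy chain bound to B2m. Nlrc5 switches on transcription of these genes, and interferons raise most of them. In the healthy brain class I is known as low on most cells and higher on microglia and endothelium. B6 mice carry the b haplotype of the H2 complex and D2 mice the d haplotype, so the heavy chains differ in sequence between the strains.

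Of the 10 members 7 lie on chromosome 17 (GRCm38, GENCODE M21). Tapbp (33915899 to 33929292), H2-K1 (33996017 to 34000347), Psmb9 (34181987 to 34187764), Tap1 (34187553 to 34197225), Psmb8 (34197721 to 34201454) and Tap2 (34203527 to 34216321) stand close together, and H2-D1 lies further on (35262730 to 35267499). B2m is on chromosome 2 (122147686 to 122153083). Nlrc5 (94434356 to 94527272) and Psmb10 (105935735 to 105938444) are on chromosome 8. All are protein-coding. Psmb9 and Tap1 overlap at their starts on opposite strands, and reads from the overlap cannot be assigned where counting ignores strand, which the sources used here do not state.

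The promoters of the chain genes are shown because B2m, on another chromosome than the heavy chains, had a like pattern over the libraries. RefSeq promoter sequence was at hand for 8 of the 10 genes, in build GRCm38.p6. Capitals mark matches to 5 letter patterns, read on both strands: GAAANNGAA and GAANNGAAA for interferon response elements, GGGNNTTCC for kappa B sites, TGACG for the core of the X2 box and CCAAT for the Y box. No 2 of the patterns overlap in these stretches. The H2-K1 stretch is chr17:34000348-34000467 on the minus strand, ending 1 base before the annotated start. The H2-D1 stretch is chr17:35262923-35262952 on the plus strand and lies inside a GENCODE H2-D1 exon. The B2m stretch is chr2:122147537-122147647 on the plus strand.
H2-K1: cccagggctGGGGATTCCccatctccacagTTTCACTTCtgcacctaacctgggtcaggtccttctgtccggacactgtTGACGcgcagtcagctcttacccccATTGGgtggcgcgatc
H2-D1: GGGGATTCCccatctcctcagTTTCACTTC
B2m: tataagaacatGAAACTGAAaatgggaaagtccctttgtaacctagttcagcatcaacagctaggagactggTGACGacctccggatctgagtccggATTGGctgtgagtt

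H2-K1 and H2-D1 both held the kappa B pattern followed by GAANNGAAA, here read on the other strand. Over 250 bases before the start, GAANNGAAA occurred in 6.34% of 27025 promoters and the kappa B pattern in 4.88%. B2m held GAAANNGAA, found in 7.16% of promoters. TGACG occurred in 5 of the 8 member promoters and in 17.9% of all, and CCAAT in 6 of 8 and in 34.5% of all. The windows of Psmb9 (34187331 to 34187580) and Tap1 (34187306 to 34187555) overlap. Their TGACG matches are the same bases, as are their CCAAT matches, and each was counted for both genes. In Psmb8 and Psmb10 none of the 5 patterns was found in this window. The interferon patterns were written after these sequences had been read, so the matches are a description only.

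The label was checked on the target first. Hp1bp3 stood at 308, 294 and 310 CPM (read counts scaled to an equal library size, with TMM factors) in B6 Ctrl libraries 1 to 3, and at 185, 182 and 259 in B6 KD. In D2 it was 226, 215 and 234 in Ctrl and 177, 163 and 230 in KD. The library labelled D2 KD 3 lay inside the D2 Ctrl range, so the target goes against its label. B6 KD 3 kept 85.2% of the B6 Ctrl mean, against 61.0% and 59.9% in B6 KD 1 and 2. In edgeR's quasi-likelihood test the fall in B6 was 0.54 on the log2 scale and was not called (SE 0.151, adjusted p = 0.0760), whereas in DESeq2 it was called (adjusted p = 0.00825). The log2 change of Hp1bp3 in D2 was -0.25 (SE 0.151), called in neither edgeR nor DESeq2. Library totals ran from 18213084 to 39420219 expected counts. Markers of choroid plexus, a tissue outside the hippocampus, summed to 2700 CPM or more in 7 libraries and to 189 CPM or less in the other 5, and each group held libraries of both kinds.

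In B6 the knockdown libraries held more mRNA of every member than any scrambled library, from 1.43-fold for Psmb10 to 7.68-fold for Nlrc5 in mean CPM. All 3 KD libraries stood above all 3 Ctrl libraries for 10 of 10 members, as they did for 13.9% of all genes tested. In edgeR 7 of the 10 were called higher at an adjusted p under 0.05, against 1.76% of all genes. The 7 were B2m, Tap1, Tap2, Tapbp, Psmb8, Psmb10 and Nlrc5. Their adjusted p-values ran from 0.0344 to 0.0447, and those of H2-D1, H2-K1 and Psmb9 were 0.0515, 0.0536 and 0.0898. An unadjusted p under 0.05 was found for 10 of 10 members, and for 3262 of 15853 genes. The median log2 fold change was 2.26 for the members and 0.0025 for all genes.

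**Figure D1:**
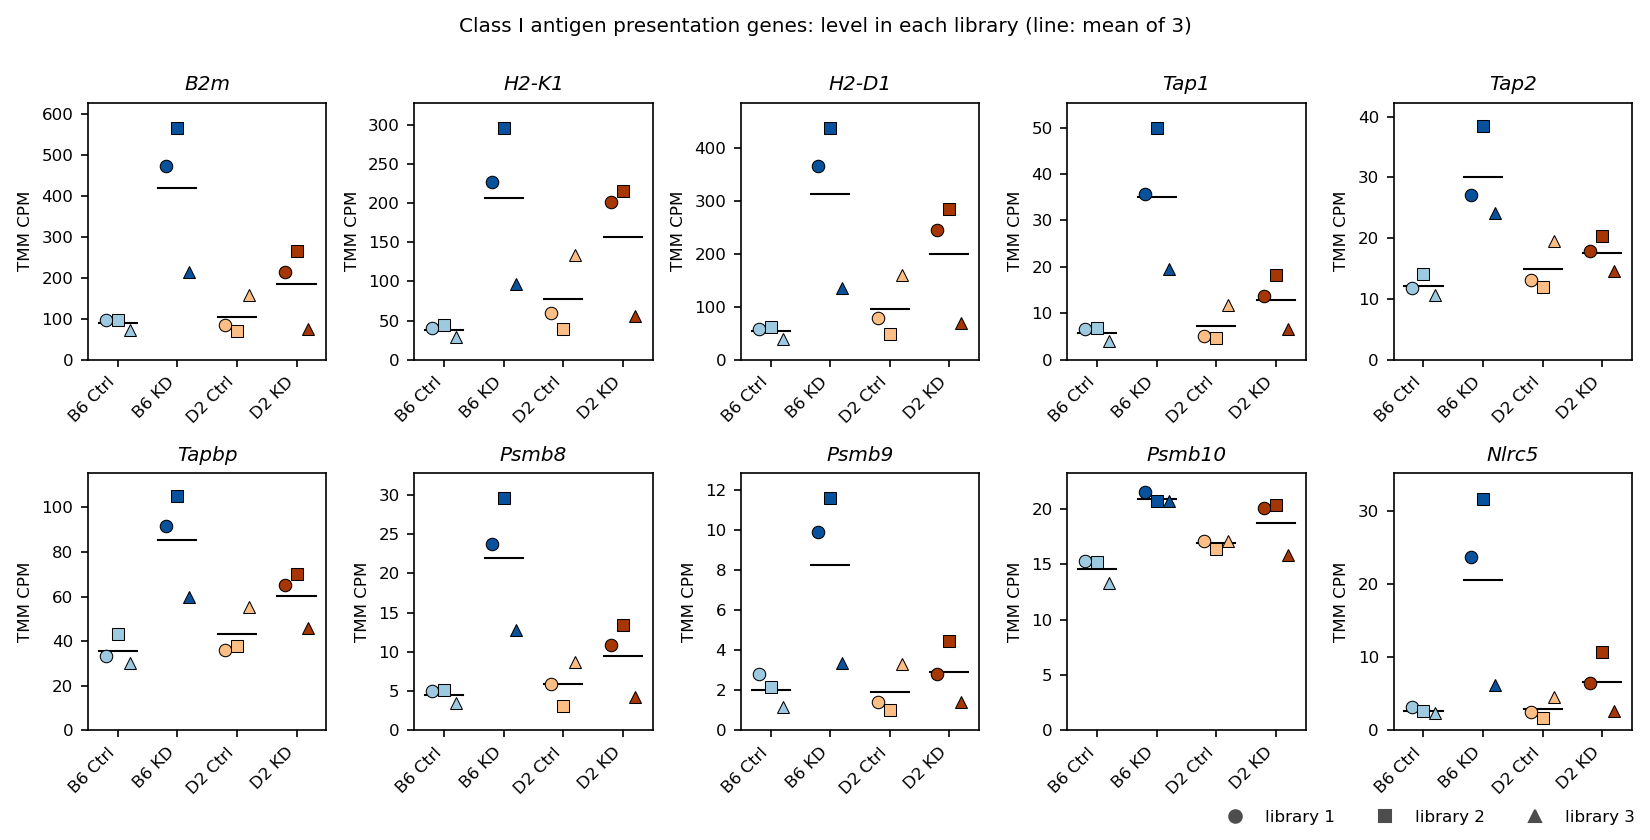
Level of each gene in TMM-scaled CPM (vertical axis, linear, from 0) in the 12 libraries, with a line at each group mean (n = 3). In B6 every KD library lies above every Ctrl library in all 10 panels. In D2 the library labelled KD 3 lies lowest of the KD libraries and Ctrl 3 lies highest of the Ctrl libraries.

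The heavy chain genes had some of the widest gaps. H2-K1, which encodes a classical heavy chain, had 40.2, 44.7 and 28.4 CPM in B6 Ctrl and 227, 296 and 96.5 in B6 KD. Ctrl averaged 37.8 ± 8.39 and KD 207 ± 101 CPM (SD, n = 3), and its log2 fold change of 2.45 (SE 0.595) missed the threshold in edgeR. H2-D1, the other classical heavy chain, had 58.7, 61.8 and 39.9 CPM in B6 Ctrl and 366, 438 and 135 in B6 KD. The lowest KD library held more than 2 times the highest Ctrl library for both genes. The H2-D1 log2 fold change was 2.55 (SE 0.607). B2m, the invariant light chain that every class I heavy chain needs, had 98, 96.1 and 72.1 CPM in B6 Ctrl and 473, 566 and 215 in B6 KD. It rose by a log2 fold change of 2.23 (SE 0.489, edgeR adjusted p = 0.0447). For all 3 genes KD 2 was the highest library and KD 3 the lowest.

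The genes of peptide transport and loading moved by different amounts. Tap1, one subunit of the peptide pump, had 6.63, 6.81 and 4.02 CPM in B6 Ctrl and 35.6, 49.9 and 19.6 in B6 KD. This was a log2 fold change of 2.59 (SE 0.486, edgeR adjusted p = 0.0361). Its partner subunit Tap2 had 11.8, 14.1 and 10.6 CPM in B6 Ctrl and 27.1, 38.5 and 24.2 in B6 KD. The Tap2 change was 1.30 (SE 0.228, edgeR adjusted p = 0.0344), so the 2 subunits of 1 pump rose by different factors in the same libraries, 6.02-fold and 2.46-fold in mean CPM. Whether these factors differ was not tested. Tapbp, the bridge between pump and heavy chain, had 33.5, 43.2 and 30.1 CPM in B6 Ctrl and 91.5, 105 and 59.6 in B6 KD. It rose by 1.26 on the log2 scale (SE 0.250, edgeR adjusted p = 0.0379).

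Of the 3 inducible proteasome subunits, Psmb8 and Psmb10 were called in edgeR and all 3 in DESeq2. Psmb8 replaces the constitutive subunit Psmb5, and it had 4.99, 5.12 and 3.44 CPM in B6 Ctrl and 23.7, 29.6 and 12.8 in B6 KD. Its log2 fold change was 2.28 (SE 0.476, edgeR adjusted p = 0.0415). Psmb9, which replaces Psmb6, had 2.80, 2.14 and 1.16 CPM in B6 Ctrl and 9.90, 11.6 and 3.38 in B6 KD. The lowest KD library was close to the highest Ctrl library, and the log2 fold change of 2.02 (SE 0.597) was not called in edgeR (adjusted p = 0.0898) but was in DESeq2 (adjusted p = 0.0114). Psmb10, which replaces Psmb7, had 15.3, 15.2 and 13.3 CPM in B6 Ctrl and 21.5, 20.7 and 20.7 in B6 KD. Its libraries were the tightest of the set, and a change of only 0.52 (SE 0.108, edgeR adjusted p = 0.0410) was called. Nlrc5, the transactivator, had 3.13, 2.56 and 2.31 CPM in B6 Ctrl and 23.7, 31.6 and 6.20 in B6 KD. It had the highest log2 fold change of the members, 2.93 (SE 0.633, edgeR adjusted p = 0.0436).

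The calls in B6 depended on single libraries and on the test, whereas the direction did not. With 1 library left out at a time edgeR called from 0 members (without B6 Ctrl 1, B6 Ctrl 3, B6 KD 1, B6 KD 2, D2 Ctrl 1 or D2 Ctrl 2) through 1 (without D2 KD 1) and 2 (without B6 Ctrl 2) to 10 (without B6 KD 3, where 3.07% of all genes were called higher). Among all genes 45 were called without D2 Ctrl 2, and 0 in the other fits that called 0 members. It was 124 genes without D2 KD 1 and 237 without B6 Ctrl 2. In all 12 fits with 1 library left out every member stayed higher in KD, with B2m between 1.93 and 2.52 and Psmb10 between 0.43 and 0.53 on the log2 scale. DESeq2 called 10 members, against 5.77% of all genes called higher, and limma-voom 5, against 1.43%. With the log2 library total as a covariate 0 were called (adjusted p from 0.0575 to 0.132, 10 of 10 at an unadjusted p under 0.05), and likewise with the choroid plexus level as a covariate (0.0555 to 0.104, 10 of 10). With either covariate edgeR called 0 of 15853 genes, and 3068 and 2903 of them had an unadjusted p under 0.05. Among choroid-rich B6 libraries (2 KD, 1 Ctrl) the ratios of KD to Ctrl mean CPM were 1.36 to 7.38, and among choroid-poor ones (1 KD, 2 Ctrl) they were 1.5 to 8.70.

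In D2 no member was called. All estimates were above 0, from 0.15 for Psmb10 to 1.17 for Nlrc5 on the log2 scale, and each edgeR adjusted p was 1.00. edgeR called 0% of all genes here. Of the members 0 had an unadjusted p under 0.05, against 452 of 15853 genes. DESeq2 and limma-voom also called 0 members. KD libraries lay wholly above Ctrl libraries for 0 of 10 members and for 2.93% of all genes. An approximate 95% interval for the log2 change ran from -0.10 to 1.75 for B2m and from -0.06 to 0.37 for Psmb10.

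The D2 estimates depended on single libraries, and 2 libraries stood apart from their groups, Ctrl 3 and the one labelled KD 3. Both had Hp1bp3 at the Ctrl level, 104% and 102% of the D2 Ctrl mean. The D2 group means hold them as labelled, and whether their labels are right was not tested. H2-K1 had 59.3, 39.7 and 134 CPM in D2 Ctrl and 201, 215 and 56 in D2 KD. H2-D1 had 78.3, 49.0 and 161 in D2 Ctrl and 245, 285 and 69.3 in D2 KD. B2m had 85.0, 70.5 and 157 in D2 Ctrl and 214, 266 and 75.8 in D2 KD. KD 1 and KD 2 were above every Ctrl library for these 3 genes, and the library labelled KD 3 was within the Ctrl range. It was the lowest KD library for 10 of 10 members, and Ctrl 3 was the highest Ctrl library for 10 of 10. Ctrl 3 held 2.70 times the mean of the other two Ctrl libraries for H2-K1, 2.76 times for Psmb9 and 1.02 times for Psmb10.

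The pump and the loading factor followed the same order. Tap1 had 5.17, 4.70 and 11.8 CPM in D2 Ctrl and 13.7, 18.2 and 6.58 in D2 KD. Tap2 had 13.1, 11.9 and 19.6 in Ctrl and 17.9, 20.3 and 14.6 in KD, so KD 1 lay below Ctrl 3. Tapbp had 36.2, 37.6 and 55.5 in Ctrl and 65.1, 69.9 and 45.7 in KD. For Psmb8 the values were 5.85, 3.11 and 8.70 in Ctrl and 10.9, 13.4 and 4.27 in KD. Together with Psmb9, Tap2 was the exception to a count of 8 of 10 members with KD 1 and KD 2 above all Ctrl libraries. Psmb9 had 1.39, 1.02 and 3.33 CPM in D2 Ctrl and 2.83, 4.47 and 1.39 in D2 KD. Psmb10 had 17.1, 16.4 and 17.1 in Ctrl and 20.1, 20.4 and 15.8 in KD. Nlrc5 had 2.45, 1.70 and 4.59 in Ctrl and 6.43, 10.7 and 2.69 in KD, the widest ratio of D2 group means at 2.26.

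With the KD library whose target goes against its label omitted, the estimates in D2 were 1.2 for B2m, 1.42 for H2-K1, 1.46 for H2-D1 and 1.54 for Nlrc5 on the log2 scale, and 0 members were called (edgeR adjusted p from 0.535 to 0.725), with 8 at an unadjusted p under 0.05. Of 16064 genes 1 was called there, and 1236 had an unadjusted p under 0.05. Without D2 Ctrl 3 B2m, H2-K1, H2-D1 and Nlrc5 had 1.25, 1.66, 1.65 and 1.65, with 0 members called (edgeR adjusted p from 0.731 to 0.758) and 7 at an unadjusted p under 0.05. Of 16075 genes 0 were called there, and 1019 had an unadjusted p under 0.05. D2 Ctrl 3 was singled out by its high member values, so higher estimates without it follow from that choice. The median D2 estimate of the members was 0.753 with all libraries, 1.085 without the library labelled KD 3 and 1.249 without Ctrl 3. It was 0.639 without Ctrl 1, 0.497 without Ctrl 2, 0.642 without KD 1 and 0.416 without KD 2. The differences from the fit with all libraries were not tested. Among choroid-rich D2 libraries (2 KD, 2 Ctrl) the ratios of mean CPM were 0.970 to 1.49, and between the single choroid-poor KD and Ctrl libraries they were 1.19 to 4.35.

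**Figure D2:**
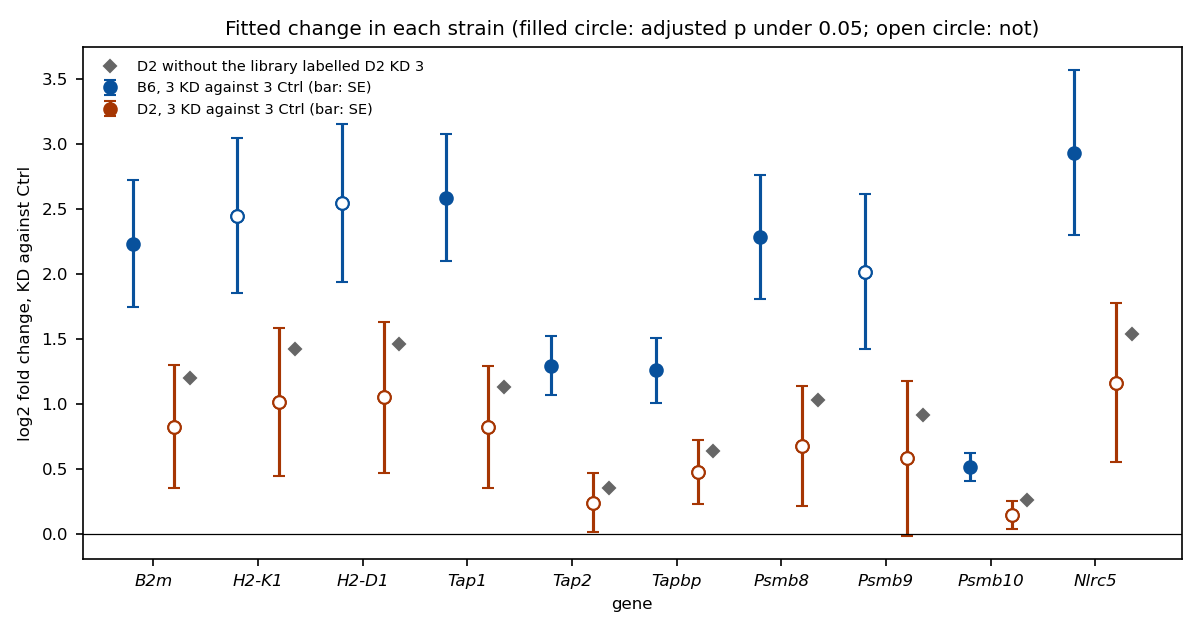
Fitted log2 fold change of KD against Ctrl (vertical axis) for each gene in B6 and in D2, with its standard error as a bar (n = 3 against 3), and in D2 without the library labelled KD 3. Filled circles mark an adjusted p under 0.05 in edgeR. Every B6 estimate lies above the D2 estimate of the same gene, from 0.52 against 0.15 for Psmb10 to 2.93 against 1.17 for Nlrc5, and no difference between strains was called.

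The difference between the strains was tested as an interaction, the D2 change minus the B6 change. It was below 0 for 10 of 10 members, from -0.37 for Psmb10 to -1.77 for Nlrc5, and 0 were called in edgeR, where 0% of all genes were (adjusted p from 0.822 to 0.894). At an unadjusted p under 0.05 were 5 members, and 937 of 15853 genes. The lowest unadjusted value was that of Tap2 (interaction -1.05, SE 0.319, edgeR adjusted p = 0.822). DESeq2 and limma-voom called 0 members as well. Averaged over strains, 0 members were called in edgeR, which called 0% of all genes (adjusted p from 0.0577 to 0.139). An unadjusted p under 0.05 was found for 10 of 10 members, and for 3046 of 15853 genes. limma-voom called 0, and DESeq2 called 10 of 10 higher, against 4.10% of all genes. Without the library labelled D2 KD 3 edgeR called 9 of 10 higher in this average, all except Psmb9, against 3.09% of all genes. It called 8 without B6 KD 3, against 1.58% of all genes, and 8 without D2 Ctrl 3, against 1.44%. D2 Ctrl 3 was singled out by its member values. In each fit without 1 of the other libraries edgeR called 0 members in this average, and at most 1 of all genes.

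The KD libraries were then set beside their target. In both strains the KD library with the most Hp1bp3 had the lowest level of every member. In B6 KD 3, at 85.2% of the Ctrl mean for Hp1bp3, B2m stood at 2.42 times and Nlrc5 at 2.32 times its Ctrl mean. In B6 KD 2, at 59.9%, they stood at 6.38 and 11.9 times. In D2 KD 2, at 72.2%, B2m stood at 2.55 times and Nlrc5 at 3.66 times. In the library labelled D2 KD 3, at 102%, they stood at 0.727 and 0.923 times. D2 Ctrl 3 departed from this order, with 104% of the Ctrl mean for Hp1bp3 and 1.51 times that for B2m.

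**Figure D3:**
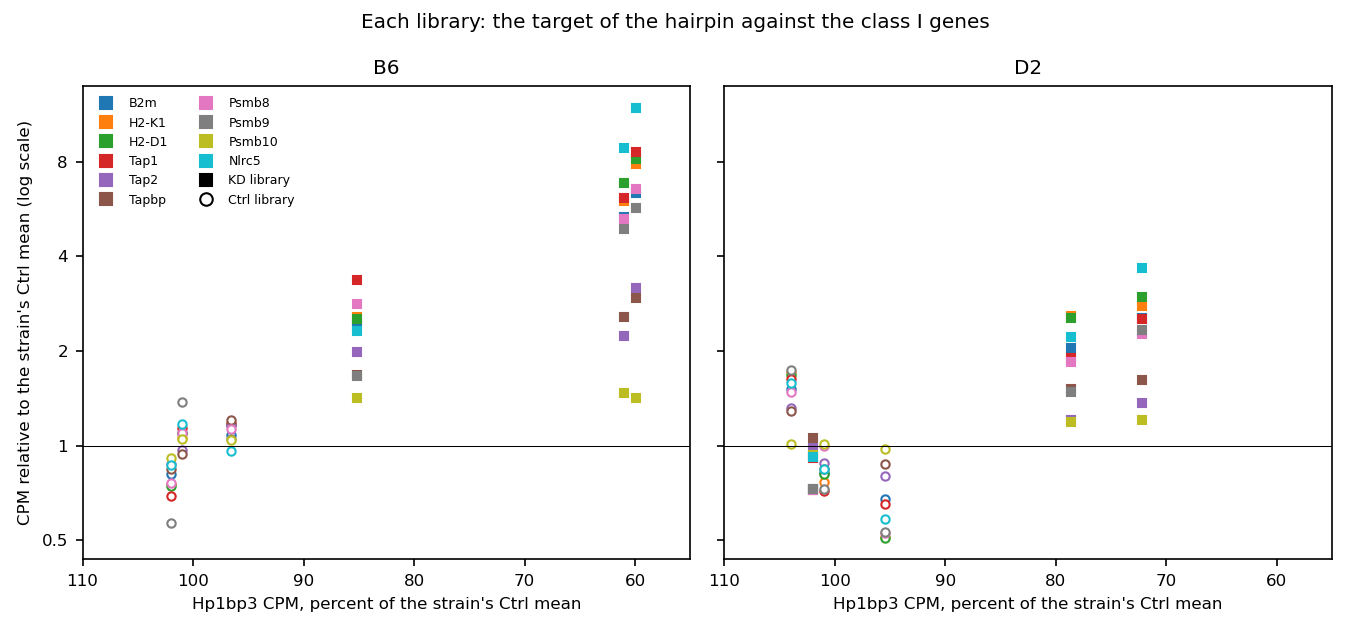
Each library's level of the 10 genes relative to the Ctrl mean of its strain (vertical axis, log scale) against its Hp1bp3 level as a percent of that mean (horizontal axis, falling to the right). Squares are KD and open circles Ctrl libraries. B6 KD 1 and 2, at 61.0% and 59.9%, lie furthest up, and the D2 KD library at 102% lies among the Ctrl libraries.

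Immunoproteasome subunits take the place of constitutive ones, so their counts were set against each other within a library. For every 100 counts of Psmb5 there were 7.01, 7.65 and 4.83 counts of Psmb8 in B6 Ctrl and 37.1, 46.3 and 15.4 in B6 KD. Psmb9 ran at 4.46, 3.34 and 1.91 counts for every 100 of Psmb6 in B6 Ctrl and at 16.1, 18.5 and 4.44 in B6 KD. Psmb10 ran at 14.9, 15.3 and 13.8 for every 100 of Psmb7 in Ctrl and at 21.5, 21.7 and 16.7 in KD. The mean ratio in B6 KD was 5.07, 4.03 and 1.36 times that in B6 Ctrl, and for Psmb9 alone the groups overlapped, at B6 Ctrl 1 and B6 KD 3. In D2 the same factors were 1.63, 1.56 and 1.09, with overlap of the groups in each. These are count ratios, not scaled to gene length, and they carry no test. None of the constitutive partners was called, with log2 changes in B6 of 0.01 for Psmb5 (SE 0.110), 0.08 for Psmb6 (SE 0.0937) and 0.09 for Psmb7 (SE 0.104).

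**Figure D4:**
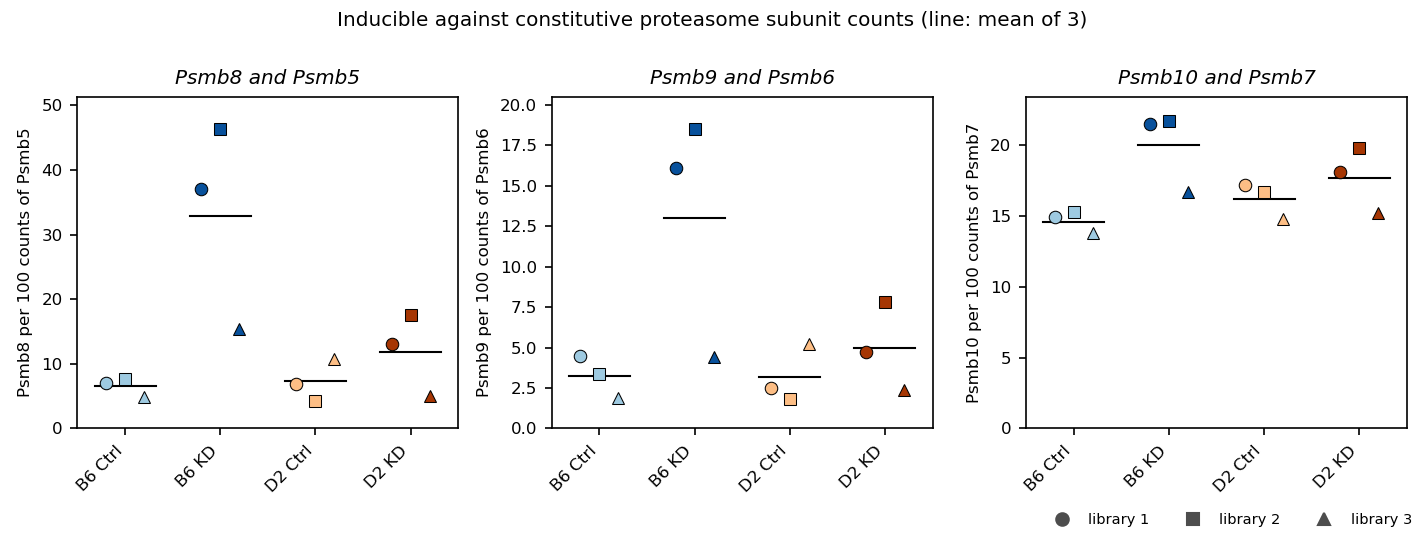
Counts of each inducible proteasome subunit per 100 counts of the constitutive subunit it replaces (vertical axes, from 0) in the 12 libraries, with lines at group means (n = 3). B6 KD libraries reach 46.3 for Psmb8, 18.5 for Psmb9 and 21.7 for Psmb10, and the D2 groups overlap.

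Some other class I heavy chains were also higher in B6 KD. Of 28 further heavy chain genes, 18 were tested and 10 had at most 3 counts in every library. Of the 18, 3 were called higher in B6 KD and 0 lower, and their median log2 change was 1.39. DESeq2 called 10 and limma-voom 1. H2-Q7, a Qa-2 gene, had 5.99, 6.12 and 2.86 CPM in B6 Ctrl and 47.0, 68.8 and 12.7 in B6 KD (log2 fold change 3.10, SE 0.651, edgeR adjusted p = 0.0415). H2-T23, which encodes Qa-1, the ligand of the NK receptor CD94/NKG2A, had 16.0, 20.6 and 13.1 CPM in Ctrl and 72.5, 88.9 and 35 in KD (1.98, SE 0.328, edgeR adjusted p = 0.0326). H2-T10 had 1.32, 1.22 and 1.10 CPM in Ctrl and 3.38, 3.51 and 1.79 in KD (1.24, SE 0.272, edgeR adjusted p = 0.0447). Heavy chain genes share sequence, so RSEM divides some reads between them. In the B6 reference 21.7% of the 75-base windows of H2-Q7 and 13.1% of those of H2-T23 also occurred in other genes, against 6.90% for H2-D1 and 1.55% for H2-K1.

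The sum over all H2 heavy chains depends less on that division. Its values were 203, 217 and 152 CPM in the B6 Ctrl libraries and 924, 1150 and 399 in the KD libraries, a ratio of means of 4.32. In D2 it was 247, 180 and 463 in Ctrl and 643, 704 and 243 in KD, a ratio of 1.79. H2-K1 and H2-D1 alone gave 5.69 in B6 and 2.06 in D2. The ratio of H2-K1 to H2-D1 counts averaged 0.707 ± 0.0193 in B6 Ctrl and 0.671 ± 0.0491 under KD as mean ± SD over 3 libraries, and the groups overlapped.

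The transcription regulators rose in part. Of 17 regulators of class I promoters, all tested, 4 were called higher in B6 KD and 0 lower (median log2 change 0.28). DESeq2 called 5 higher and 1 lower, and limma-voom 5 higher. Irf9, a DNA-binding factor of the interferon response, had 20.7, 19.1 and 18.9 CPM in B6 Ctrl and 68.5, 76.9 and 49.8 in B6 KD (log2 fold change 1.73, SE 0.321, edgeR adjusted p = 0.0361). Stat2, a signal transducer of type I interferon receptors, had 38.6, 32.2 and 35.1 CPM in Ctrl and 99.7, 113 and 67.3 in KD (1.40, SE 0.218, edgeR adjusted p = 0.0326). Irf8, a factor of myeloid cells, rose by 1.61 (SE 0.350, edgeR adjusted p = 0.0443). The X-box and Y-box factors of the list were not called in edgeR. The gene that DESeq2 called lower was the X-box factor Rfxap, named after its values were seen, at 31.6, 25.8 and 26.6 CPM in Ctrl and 21.7, 22.6 and 22.7 in KD (edgeR log2 fold change -0.32, SE 0.100, adjusted p = 0.0988).

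Messages of the interferons were at the edge of detection. Of the 12 genes of interferon signals and receptors 7 had at most 3 counts in every library, and a count of 3 is 0.0761 to 0.165 CPM here. Ifna1, Ifna2 and Ifnl3 had 0 counts in all 12 libraries, which allows up to 3 counts in a library, and Ifnb1 and Ifng reached 1 and 2 counts. Of the 5 tested, Tnf, an inflammatory cytokine, was called higher in B6 KD (edgeR adjusted p = 0.0471), with 5 counts summed over B6 Ctrl and 55 over B6 KD. DESeq2 called 3 of the 5 higher in B6 KD and limma-voom 0. Ifnar1, a chain of the type I interferon receptor, ran from 44.5 to 59.7 CPM in B6 Ctrl and from 45.6 to 51.4 in B6 KD. The log2 fold changes of the receptor chains in B6 were -0.05 for Ifnar1, 0.52 for Ifnar2, 0.55 for Ifngr1 and -0.13 for Ifngr2. Every B6 KD library stood above every Ctrl library for Ifnar2 and Ifngr1, and below for Ifngr2. None of these chains was called in edgeR. Of the 12 receptors that bind class I, 9 were in the table and 3 were tested, and none was called (0 in edgeR, DESeq2 and limma-voom, 2 at an unadjusted p under 0.05).

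The housekeeping parts of the pathway had smaller medians. Of the 14 constitutive proteasome subunits 0 were called in B6 by edgeR, DESeq2 or limma-voom, and the median log2 change was 0.09. An unadjusted p under 0.05 was found for 1 of them, against 3262 of 15853 genes. Of 12 genes of peptide loading and trimming 1 was called, and the median was 0.16. This was Erap1, the aminopeptidase that trims peptides in the endoplasmic reticulum, with 8.74, 12.9 and 10.4 CPM in B6 Ctrl and 27.4, 34.5 and 20.8 in B6 KD (log2 fold change 1.36, SE 0.188, edgeR adjusted p = 0.0326). Of the 9 proteasome activators and assembly factors that were found 1 was called, with a median of 0.17. This was Psme2, a subunit of the PA28 activator cap, which rose by 0.70 (SE 0.127, edgeR adjusted p = 0.0361). Over all 7 lists 10 genes were called in B6 and 0 in D2. The B6 count was 15 without B6 KD 3 or without the library labelled D2 KD 3. It was 6 without D2 KD 1, 5 without B6 Ctrl 2 and 2 without D2 Ctrl 2. It was 0 with either covariate and without B6 Ctrl 1, B6 Ctrl 3, B6 KD 1, B6 KD 2 or D2 Ctrl 1. In each of those fits edgeR called 0 of all genes in B6.

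**Figure D5:**
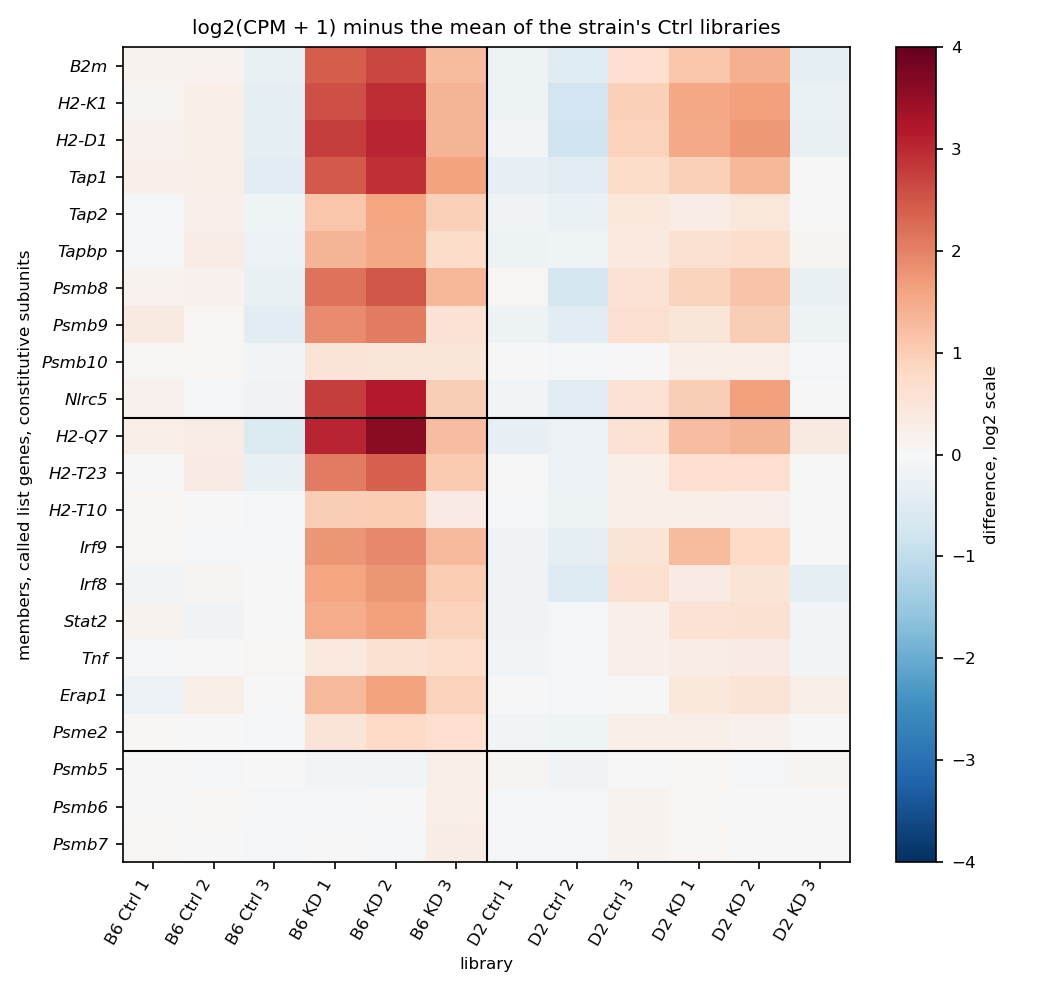
Log2(CPM + 1) of each library minus the mean of its strain's Ctrl libraries, for the 10 members, 9 of the 10 list genes called higher in B6 KD, and the 3 constitutive subunits Psmb5, Psmb6 and Psmb7. Red is higher and blue lower. B6 KD 1 and 2 are the reddest columns, the library labelled D2 KD 3 is near the Ctrl columns, and the constitutive subunits are pale throughout.

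Marker lists of cell types differed in direction in B6. The 10 microglia markers summed to 475 to 548 CPM in B6 Ctrl and to 698 to 1140 in B6 KD. In edgeR Itgam alone was called higher (8 in DESeq2, 9 at an unadjusted p under 0.05), and the median log2 change of the list was 0.94. For the marker counts that follow, 3262 of 15853 genes had an unadjusted p under 0.05 in B6. The 6 markers of blood or border macrophages summed to 16.7 to 58.8 CPM in B6 Ctrl and to 52.7 to 111 in B6 KD, and 1, Plac8, was called. The T cell markers summed to 0.665 to 1.46 CPM in B6 Ctrl and to 1.39 to 7.28 in B6 KD, with Cd3e at 0 in 2 of the 3 Ctrl libraries. None of the 6 NK cell markers passed the filter, and they summed to 0.145 to 0.378 and 0.907 to 2.63 CPM, and B cell markers to 0.458 to 1.03 and 1.34 to 2.33. The sums of the 6 endothelial markers overlapped, at 219 to 269 and 250 to 301 CPM. Of these 6, edgeR called 0 and DESeq2 1, and 3 had an unadjusted p under 0.05. Cldn5, Pecam1 and Ly6c1, named after their values were seen, had every B6 KD library above every Ctrl library, with log2 fold changes of 0.43, 0.41 and 0.65. Such a separation held for 13.9% of all genes tested. The groups overlapped for Flt1 (-0.05), Tek (0.26) and Slco1a4 (0.16). The sums of the 6 astrocyte markers overlapped too (4580 to 5490 and 5460 to 7270 CPM), with Slc1a2 the largest part at 2250 to 3760 CPM. Of these 6, edgeR called 1 higher, Aqp4, and DESeq2 2, and 3 had an unadjusted p under 0.05. Gfap, Aqp4 and Aldh1l1 had every B6 KD library above every Ctrl library, and Gfap stood at 555 to 693 CPM in Ctrl and 1150 to 2600 in KD (log2 fold change 1.70, SE 0.520, edgeR adjusted p = 0.0981). The groups overlapped for Slc1a2 (-0.16), Slc1a3 (0.10) and Gja1 (0.11). The sum of the 7 neuron markers was lower in B6 KD, at 7360 to 8900 CPM against 9130 to 10000 in Ctrl. Camk2a was its largest part, at 2730 to 3180 CPM in KD and 3790 to 4460 in Ctrl. The log2 fold changes of Slc17a7 (0.18) and Gad2 (0.02) were above 0, and those of the other markers were below 0, down to -0.49 for Rbfox3. In edgeR and limma-voom 0 of the 7 were called, with 2 in DESeq2 and 2 at an unadjusted p under 0.05. Lists for hippocampal neurons and oligodendrocytes overlapped between the B6 groups, and 0 of the 5 genes in each were called in edgeR, DESeq2 or limma-voom, with 0 at an unadjusted p under 0.05. The part of these cells in the class I values was not tested. In D2 the microglia sum was 542, 431 and 722 CPM in Ctrl and 590, 797 and 447 in KD, so D2 Ctrl 3 and the library labelled D2 KD 3 stood on the same sides as for the class I genes.

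The strains were compared at baseline in the scrambled libraries. No member was called (0 in edgeR, DESeq2 and limma-voom, and 0 at an unadjusted p under 0.05), against 14.0% of all genes in edgeR. Of 15853 genes 3684 had an unadjusted p under 0.05. The highest estimate was that of H2-K1, at 1.04 higher in D2 on the log2 scale (SE 0.574, edgeR adjusted p = 0.329), with H2-D1 at 0.85 (SE 0.580). Approximate 95% intervals were -0.08 to 2.17 and -0.29 to 1.99. Both estimates fell to 0.40 and 0.26 without D2 Ctrl 3. For the other eight genes the estimates ran from -0.07 for Psmb9 to 0.40 for Psmb8. Averaged over treatments 0 members were called in edgeR, DESeq2 and limma-voom, with 0 at an unadjusted p under 0.05. Of 15853 genes edgeR called 3379 in this average, and 4803 had an unadjusted p under 0.05.

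Some heavy chains outside the members did differ between the strains. Of the 18 tested, 2 were called higher and 3 lower in D2 Ctrl than in B6 Ctrl. H2-Q7 was lower in D2, at 0.403, 0.509 and 1.63 CPM against 5.99, 6.12 and 2.86 (log2 difference -2.53, SE 0.723, edgeR adjusted p = 0.0390). H2-T22 was lower as well, by -1.31 (SE 0.374, edgeR adjusted p = 0.0386). H2-T10 was higher in D2, at 3.81, 3.45 and 5.19 CPM against 1.32, 1.22 and 1.10 (1.77, SE 0.274, edgeR adjusted p = 0.000978). In the B6 reference 26.1% of the 75-base windows of H2-T22 also occurred in other genes, most often in H2-T10. The part of read division between H2-T22 and H2-T10 in these values was not tested. H2-M2 was called higher, with 24 counts summed over D2 Ctrl and 1 over B6 Ctrl. H2-Q6, chosen after its values were seen, was listed at 0 in 5 of 6 D2 libraries and at 1.30 CPM in D2 Ctrl 1, against 2.34 to 4.72 CPM in B6 Ctrl. Each strain had its own alignment reference, and the d haplotype is known to carry a further classical gene, H2-L, that was not analysed here, so a difference in level and a difference in reference sequence cannot be told apart for these genes. Outside the heavy chains Sec61g, a subunit of the translocon, was higher in D2 by 1.27 (SE 0.0941, edgeR adjusted p = 3.76e-06), Ifnar1 was higher by 0.55 (SE 0.105, edgeR adjusted p = 0.0043), and Tapbpl, a relative of tapasin, was lower, at -0.53 (SE 0.141, edgeR adjusted p = 0.0280).

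The group means stood in the order B6 KD, D2 KD, D2 Ctrl and B6 Ctrl for 9 of 10 members, and Psmb9 had the Ctrl groups exchanged. Libraries of B6 KD and D2 KD overlapped for 7 of the 10, with Tap1, Tap2 and Psmb10 apart. Those of D2 KD and D2 Ctrl overlapped for all 10. The 2 Ctrl groups overlapped for all members except Psmb10, at 13.3 to 15.3 CPM in B6 and 16.4 to 17.1 in D2.

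The members were also alike in pattern. With log2(CPM + 1) centred within each strain, Pearson's r over the 12 libraries between a member and the mean of the others ran from 0.910 for Psmb10 to 0.996 for B2m. Among 14172 other genes with a mean of at least 1 CPM, the 5 most like the members' mean were Gbp6 (r = 0.992), Gm4951 (0.991), Ifit3, Parp9 and Ifi44 (0.990 each). Gbp6 is an interferon-inducible GTPase and Ifit3 an interferon-induced RNA-binding family member. Without centring, Oasl2 took the place of Ifi44 among the 5. Centring within strain left the difference between KD and Ctrl in place, so these values carry no p. The sample labels name no batch. Ifit3 had 12.4, 14.2 and 10.2 CPM in B6 Ctrl and 210, 272 and 74.9 in B6 KD, and in D2 it had 12.8, 10.5 and 50.8 in Ctrl and 61.3, 123 and 16.0 in KD. The order of its libraries was that of B2m within the KD groups, with KD 2 highest and KD 3 lowest in both strains.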

How the data were processed

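The members and lists were chosen with earlier results of these data known. Total RNA was isolated from whole hippocampus of 12 mice, and mRNA libraries were sequenced as paired 75-base reads. The authors mapped reads strain by strain, each to a matching genome, and estimated expression with RSEM 1.2.12 and bowtie2 2.2.0 (versions and builds GRCm38 and mm10 per the submitters' processing notes). The annotation release, and whether strand was used in counting, are not given in the sources used here. The deposited values are expected counts of genes as RSEM estimates them, neither normalized nor whole. The labels say that reads of 2 runs were joined for most samples, without naming them. A second table, of counts normalized by the authors, was not used.

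Expected counts of 22236 genes were rounded. A spreadsheet had turned 27 symbols into dates, and these were restored from their identifiers. In R 4.3.3, edgeR 4.0.16 tested 15853 genes that passed filterByExpr, with TMM factors (levels are CPM on this scale), a mean for each of 4 groups and the older, robust quasi-likelihood F-test. Adjusted p-values (Benjamini-Hochberg over all genes tested) under 0.05 were called. Standard errors were taken as the absolute log2 fold change over the root of F, and 95% intervals are normal approximations from them. Alternatives used DESeq2 1.42.0, limma 3.58.1, other scalings and filters, covariates and fits without 1 library. The alternatives with the choroid plexus covariate and limma-voom with library weights were chosen after seeing the data, as were the alternatives for lists and ratios. The fit was tested on simulated data. Libraries were grouped by their strain and treatment labels. A number only names a library, in order of deposit. Replicate pairs differed beyond counting noise (chi-square per degree of freedom 23.4 to 110 over genes), so all 12 were counted. They are separate mice.

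Named genes were all members, Hp1bp3, and from each list at most the 4 called genes with the largest change in B6 or between Ctrl groups, plus the 5 most alike. In the heavy chain list 2 symbols with a matching prefix, H2-Ke2 and H2-Ke6, were left out because they are not class I genes. Of the list symbols 6 were not found in the table and not used here. Promoter sequence is from RefSeq (GRCm38.p6). The values of 1 called list gene are not reported here, and it is left out of the heat map.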

Additional observations from a re-analysis of the deposited data

How the results depend on the processing

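The members were higher in KD in all 120 of their values with all libraries and all 120 with 1 library left out in B6, likewise in D2, and in all 110 and 120 of the strain average. The B6 count of members called, 7 in edgeR, became 0 with the library total or the choroid plexus level as a covariate and ran from 0 to 10 with 1 library left out. It stayed between 5 and 10 under the other alternatives. The average over strains, 0 in edgeR, became 10 in DESeq2 and 10 in limma-voom with library weights, and ran from 0 to 9 with 1 library left out. The D2, interaction and baseline strain counts stayed at 0 in every fit. The average over treatments became 3 members lower in D2 in limma-voom with library weights, where 2438 of 15853 genes were called lower. Over the 7 pathway lists the B6 count, 10 in edgeR, was 23 in DESeq2, 27 with library weights, 0 with either covariate and 0 to 15 with 1 library left out. The baseline strain count over the lists, 8, was 13 in DESeq2, 4 with either covariate and 3 to 10 with 1 library left out. Over all genes edgeR called 418 in B6 (1688 in DESeq2, 2307 with library weights, 0 with either covariate, 0 to 790 with 1 library left out) and 0 in the strain average (1241, 1600, 0 and 0 to 799, and 15 with the newer quasi-likelihood method). For the interaction and in D2, 0 in edgeR, DESeq2 called 11 and 1. The cause was not tested. The strain difference in Ctrl was negative with library weights for B2m (-0.066), Tap1 (-0.06) and Nlrc5 (-0.167). With 1 library left out it ran from -0.188 to 0.449 for B2m, from -0.232 to 0.541 for Tap1 and from -0.346 to 0.394 for Nlrc5, below 0 only without D2 Ctrl 3. For Psmb9 it was 0.110 with the choroid covariate and ran from -0.734 to 0.244, above 0 without B6 Ctrl 1, D2 Ctrl 1 or D2 Ctrl 2. No paired analysis was possible because the labels give no replicate numbers shared between groups. Depth limits Psmb9, with 18 counts in its lowest library, and Nlrc5, with 30, whereas the other members had 55 counts or more in every library.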
